A study of Mus musculus with 24 samples.

Results

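The genes described here place, copy and read the methyl mark on cytosine in mouse liver DNA. They are 7 genes, taken by symbol from the deposited expression table: the DNA methyltransferases Dnmt1, Dnmt3a and Dnmt3b, and the methyl-CpG binding domain genes Mbd1, Mbd2, Mbd3 and Mbd4. All 7 were found among the 15582 genes kept from that table, each once. They were chosen with earlier results of these data known. In mammals most cytosines that are followed by guanine (CpG) carry a methyl group. Dnmt3a and Dnmt3b add it to unmethylated DNA, and Dnmt1 copies it onto the new strand when DNA is replicated. Proteins with a methyl-CpG binding domain bind the mark and bring in partners that silence chromatin, or, for Mbd4, repair mismatches at CpG sites. Hepatocytes, the main cell of the liver, rarely divide in the adult but can re-enter the cell cycle.

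Total RNA from frozen liver of mixed lobes was sequenced after removal of ribosomal RNA, in 24 libraries from male B6C3F1 mice, a hybrid strain used in cancer bioassays, whose age is labelled as 4 weeks. The animals were given DCA (dichloroacetic acid), which forms when water is chlorinated and causes liver tumours in mice, in drinking water for 6 days. The doses were 0 g/L (control), 1 g/L, 2 g/L and 3.5 g/L, with 6 libraries at each. That the libraries of a dose are from separate animals is not stated in the labels, and p-values refer to the spread among libraries, which may be technical. Libraries are called by the number that opens their title: 3 to 8 for control, 49 to 54 for 1 g/L, 73 to 78 for 2 g/L and 97 to 102 for 3.5 g/L. Each title also holds a tag of L1, L2 or L3, followed by a further code for the library, and the labels explain neither. All control libraries and 1 g/L libraries 49, 50 and 51 carry L1, 1 g/L libraries 52, 53 and 54 and all 2 g/L libraries carry L2, and all 3.5 g/L libraries carry L3. The tag and the dose therefore cannot be told apart at 3.5 g/L, and only the split 1 g/L group links the tags below it.

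Values are RPKM, read counts divided by gene model length and by library depth, so levels can be compared between genes. Relative depth, recovered from the steps between low values, ran from 0.939 in control library 3 to 1.117 in 3.5 g/L library 102. Hepatocyte markers were by far the highest of the marker lists, with a summed level of 25700 to 32400 RPKM in control, so the tissue label fits its markers. No marker gene of any list was listed at 0 in every library. Markers also moved with dose. The hepatocyte sum was 18100 to 27600 RPKM at 2 g/L and 19400 to 25000 RPKM at 3.5 g/L, and 7 of 10 hepatocyte markers fell at each of these doses. At 3.5 g/L 1 of the 10 rose, Hnf4a (0.44 on the log2 scale used below), named after its value was seen. The Kupffer cell and macrophage sum was 101 to 144 RPKM in control and 69.9 to 93.0 RPKM at 3.5 g/L, where 7 of 9 tested markers fell. The erythroid sum was 198 to 649 RPKM in control and 154 to 332 RPKM at 2 g/L, where 5 of 6 tested markers fell. Endothelial markers summed to 50.4 to 63.5 RPKM over all libraries and stellate and fibroblast markers to 53.6 to 108 RPKM, while bile duct and lymphocyte markers summed to 7.33 RPKM or less. Of 8 stellate and fibroblast markers, 2 rose at 2 g/L and 1 rose at 3.5 g/L. The 1 tested lymphocyte marker fell at both doses. Among all tested genes 10.0% fell and 41.9% rose at 2 g/L, and 12.9% fell and 38.6% rose at 3.5 g/L. The part of the marker shifts in the results below was not tested. In bulk tissue, fewer cells of a type and less RNA per cell cannot be told apart.

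In control liver the readers were the most abundant of the 7. Mean levels were 9.52 RPKM for Mbd1, 7.44 RPKM for Mbd2 and 6.56 RPKM for Mbd3, and the ranges of neighbours in that order overlapped. The writers followed at 2.04 RPKM for Dnmt3a, 1.60 RPKM for Dnmt1 and 1.10 RPKM for Dnmt3b, and these 3 ranges did not overlap in control. Mbd4 was lowest at 0.277 RPKM. At 2 g/L the order had shifted: Mbd3 was highest at 8.29 RPKM, ahead of Mbd2 at 7.68 RPKM and Mbd1 at 7.11 RPKM, and Dnmt1 at 2.05 RPKM stood level with Dnmt3a at 2.00 RPKM. Ranges overlapped for each of those neighbouring pairs.

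**Figure D1:**
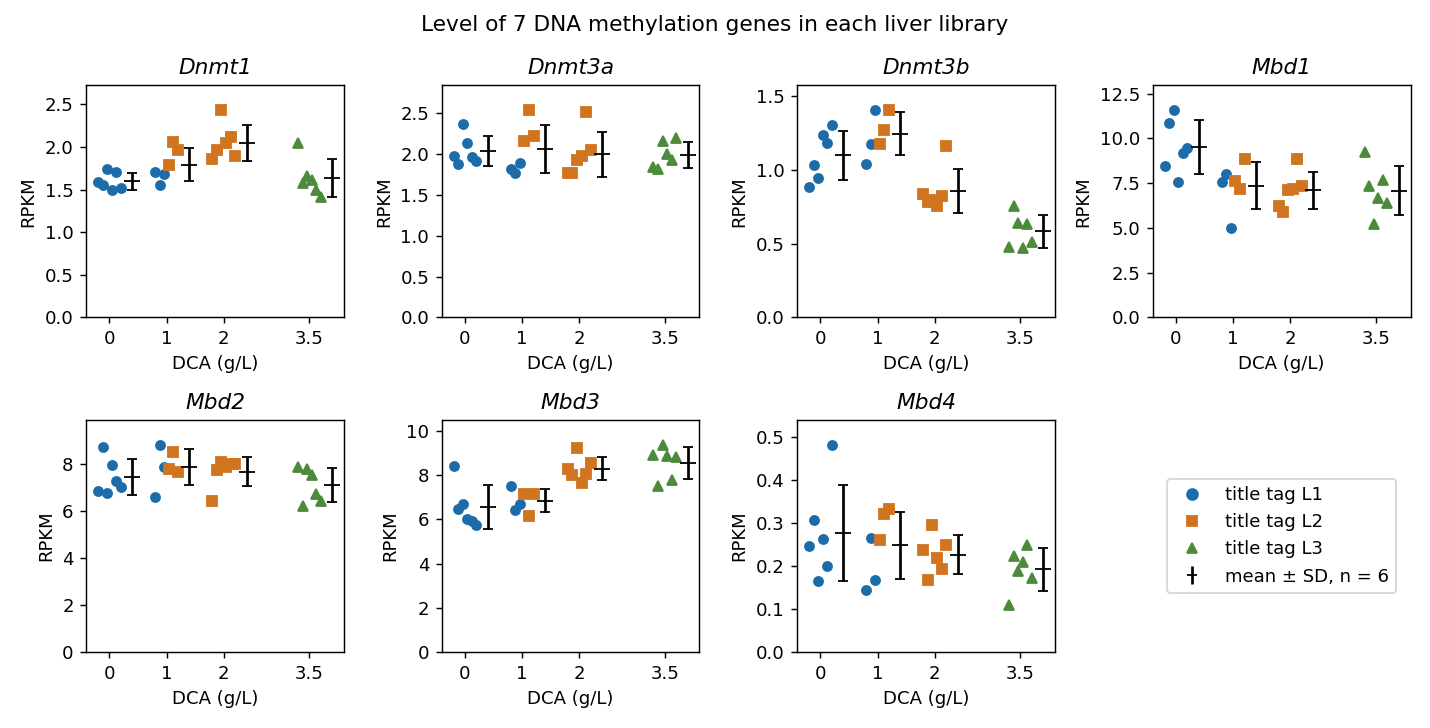
Level of each of the 7 genes (RPKM, vertical axis from 0) against the DCA dose (g/L, horizontal axis). Each point is 1 library, its shape and colour give the title tag, and the black bar is the mean ± SD of 6 libraries. Dnmt3b falls to 0.473 to 0.756 RPKM at 3.5 g/L, below every control library, while Dnmt1 is high at 2 g/L and back near control at 3.5 g/L.

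Each dose was compared with control by limma on log2(RPKM + 1), over 6540 genes that reached 0.5 RPKM in at least 6 libraries, and a gene is said to have risen or fallen where its adjusted p was under 0.05. On this scale the change of low genes is understated, so ratios of mean RPKM are given too. Of the 7 genes, 6 were tested, since Mbd4 did not reach 0.5 RPKM in any library. None of the 6 changed at 1 g/L, where 8.35% of all tested genes rose and 3.03% fell. At 2 g/L, Dnmt1 and Mbd3 rose and Dnmt3b and Mbd1 fell, that is 2 of 6 in each direction, against 41.9% of all genes that rose and 10.0% that fell. At 3.5 g/L, Mbd3 rose and Dnmt3b and Mbd1 fell, against 38.6% and 12.9% of all genes. The share of the 6 that rose was thus no higher than in all genes, and 2 of 6 that fell is a larger share than in all genes, a difference that was not tested. The 3 comparisons with control share the same 6 control libraries. In the deposited scaling the median of all tested genes was 0.12 above control on the log2 scale at 2 g/L and 0.10 above at 3.5 g/L, so a rise of that size is the level of the table as a whole. With library factors from the median ratio to a typical library, the shares were 21.3% up and 21.1% down at 2 g/L, and 23.5% up and 23.3% down at 3.5 g/L.

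**Figure D2:**
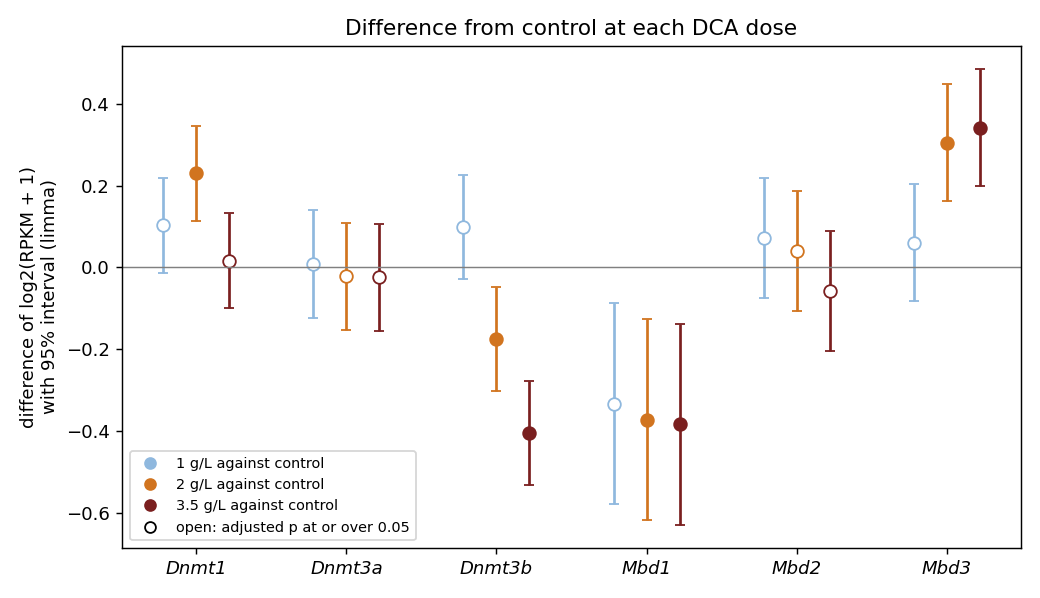
Difference from control in log2(RPKM + 1) (vertical axis) for the 6 tested genes (horizontal axis) at 1, 2 and 3.5 g/L, with 95% intervals from the limma fit. Filled points passed an adjusted p of 0.05: Dnmt1, Dnmt3b, Mbd1 and Mbd3 at 2 g/L, and Dnmt3b, Mbd1 and Mbd3 at 3.5 g/L. No point at 1 g/L is filled.

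Dnmt1, the maintenance methyltransferase, lies on chromosome 9 from 20907209 to 20959888 on the minus strand (GRCm38, GENCODE M21). For every member, reads were inferred as the smallest whole numbers that fit the RPKM values, and Dnmt1 had 270 to 434 per library. RefSeq (GRCm38.p6) lists 3 start windows for it in the promoter table, each of 300 bases from 250 before to 50 after a start. The one at chr9:20952574-20952873 is shown because it alone of the 3 holds a match to the E2F site that many replication genes carry. It is printed 5′ to 3′ along the minus strand, with the E2F matches in capitals:
Dnmt1: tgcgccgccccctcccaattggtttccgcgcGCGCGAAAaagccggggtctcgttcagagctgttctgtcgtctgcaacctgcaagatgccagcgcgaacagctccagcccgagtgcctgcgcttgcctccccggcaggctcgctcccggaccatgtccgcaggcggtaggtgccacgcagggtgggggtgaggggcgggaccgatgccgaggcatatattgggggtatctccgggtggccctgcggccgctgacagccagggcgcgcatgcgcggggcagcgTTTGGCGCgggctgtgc
The letters searched were TTTCGCGC and TTTGGCGC on both strands, and the first match in this window is TTTCGCGC read on the opposite strand. Such a match is present in 0.8% of all 32851 windows. By gene, 251 of 27025 genes (0.9%) have one, and 6 of the 14 S phase genes with a window do (Cdk1, Cdt1, Mcm3, Mcm5, Mcm6 and Mcm7). So do 3 of 13 other writers and targeting factors (Ezh2, Lig1 and Uhrf1) and 1 of 5 stellate and fibroblast markers (Lrat). No share among windows of like CpG content was computed. This window holds 33 CpG, against a median of 7 over all windows, at 69.7% GC. A match describes the letters only.

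Dnmt1 rose at 2 g/L and was near its control level again at 3.5 g/L. Control libraries ran from 1.49 to 1.74 RPKM with a median of 1.57 RPKM, and the 1 g/L libraries from 1.55 to 2.06 RPKM with a median of 1.75 RPKM. At 2 g/L they ran from 1.85 to 2.43 RPKM with a median of 2.01 RPKM, and every one of the 6 was above every control library. The 3.5 g/L libraries had a lowest, median and highest value of 1.41, 1.60 and 2.05 RPKM, and the highest, library 97, stood apart from the other 5, which were at 1.66 RPKM or below. The mean was 1.28 times control at 2 g/L, a difference of 0.23 (SE 0.056, adjusted p = 0.0016). Its difference from control at 3.5 g/L was 0.02, with a 95% interval of -0.10 to 0.13 (adjusted p = 0.822). The drop from 2 g/L to 3.5 g/L was itself tested: Dnmt1 fell by 0.21 (SE 0.056, adjusted p = 0.0176). In that comparison 2 of 6 genes fell, Dnmt1 and Dnmt3b, and none rose, against 5.54% and 4.79% of all genes. Without 2 g/L library 75, the highest, the drop was -0.18 and missed the threshold (adjusted p = 0.0506).

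The rise of Dnmt1 at 2 g/L depended on the scaling and on the tag. With median-ratio factors it was 0.12 (adjusted p = 0.059), and with quantile normalization 0.13 (adjusted p = 0.0297). Within the 1 g/L group, the 3 libraries tagged L1 averaged 1.65 RPKM and the 3 tagged L2 averaged 1.94 RPKM, with no overlap. Between L2 libraries alone, 2 g/L differed from 1 g/L by 0.05 (adjusted p = 0.679), and with the tag as a term 2 g/L differed from control by 0.08 (SE 0.091, adjusted p = 0.597).

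Genes of DNA replication and cell division, whose products are made mostly in cycling cells, were set beside Dnmt1. Of 13 tested, 11 rose at 2 g/L, against 41.9% of all genes. Among the 11 were Ccnb1 (0.97) and Ccna2 (0.54), the cyclins of mitosis and of S phase. The proliferation marker Mki67 (0.54) and the replicative helicase subunit Mcm5 (0.48) were others. The median of the 13 was 0.40 at 2 g/L and 0.02 at 3.5 g/L, where 1 of 13 rose, and 7 of 13 fell between those doses. Over all tested genes 5.54% fell between those doses and the median difference was -0.01, while for the 13 it was -0.35. The 7 that fell were Mcm2 to Mcm7 and Fen1, named after their values were seen. Ccnb1 (0.66), Ccna2 (0.33) and Mki67 (0.27) were still higher than control at 3.5 g/L, where only Ccnb1 passed the test (adjusted p = 0.0249). None of them fell between 2 and 3.5 g/L by the test. The summed level of the 17 genes of the list was 11.2 to 16.2 RPKM in control, 10.3 to 24.7 RPKM at 1 g/L, 17.5 to 28.4 RPKM at 2 g/L and 11.5 to 21.1 RPKM at 3.5 g/L. Library 75 at 2 g/L was highest in both this sum (28.4 RPKM) and Dnmt1 (2.43 RPKM). They did not always go together: 3.5 g/L library 97, with Dnmt1 at 2.05 RPKM, had a sum of 15.3 RPKM. With median-ratio factors 8 of 13 rose at 2 g/L, and none did in the fit with a tag term (median 0.20). The share that rose rests in part on the filter, which some genes passed only with treated libraries. Means in control and at 2 g/L were 0.327 and 1.69 RPKM for Ccnb1, and 0.377 and 0.616 RPKM for Cdt1. Without 2 g/L library 78, 12 genes were tested and 10 rose. Mcm3, Mcm4, Mcm6, Mcm7, Fen1 and Mki67, which rose at 2 g/L, were above 0.5 RPKM in every control library.

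Genes of other proteins that guide Dnmt1 or work beside it changed in RNA level in the same comparison. All 6 tested genes of the list of other writers and targeting factors rose at 2 g/L, where 41.9% of all genes rose. Their median was 0.29 against 0.12 over all genes. The largest were Ehmt2 (0.36), a histone H3 lysine methyltransferase also called G9a, Lig1 (0.35), the ligase that joins replicated fragments, Dmap1 (0.30), named for its binding to Dnmt1, and Hells (0.29), a chromatin remodeller needed for normal DNA methylation. Dmap1 (0.29, adjusted p = 0.0186) and Ezh2 (0.20, adjusted p = 0.0348), the Polycomb methyltransferase, rose already at 1 g/L, but without control library 3 none of the 6 was called there. At 3.5 g/L only Ehmt2 and Dmap1 of the 6 were above control by the test, and between 2 and 3.5 g/L Hells fell by 0.32 and Lig1 fell by 0.30. The filter favours genes that are high at 1 dose. Hells did not pass 0.406 RPKM in control or 0.398 RPKM at 3.5 g/L, and Lig1 averaged 0.362 RPKM in control and 0.736 RPKM at 2 g/L. The count of 6 that rose, and the falls of Hells and Lig1, therefore rest in part on the filter. Dnmt3l, the inactive partner of the de novo enzymes, was listed at 0 in all 24 libraries. Under median-ratio factors 3 of the 6 rose at 2 g/L, and 1 rose in the fit with a tag term.

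Dnmt3b, a de novo methyltransferase most active in early development, lies on chromosome 2 from 153649450 to 153687730 on the plus strand, with 60 to 182 reads per library. Its RefSeq start window at chr2:153649199-153649498, printed 5′ to 3′ on the plus strand, is shown because it is the start of the member with the largest change. Capitals mark GC boxes, searched as GGGCGG on both strands:
Dnmt3b: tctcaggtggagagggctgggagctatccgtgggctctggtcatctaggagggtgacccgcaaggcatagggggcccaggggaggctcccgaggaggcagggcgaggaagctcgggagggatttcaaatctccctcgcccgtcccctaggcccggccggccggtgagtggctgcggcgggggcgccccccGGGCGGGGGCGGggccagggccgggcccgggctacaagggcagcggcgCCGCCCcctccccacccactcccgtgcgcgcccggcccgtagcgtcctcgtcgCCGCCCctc
The window holds 4 GC boxes, 30 CpG and no E2F match, at 76.0% GC, and 35.7% of all windows hold at least 1 GC box.

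Dnmt3b fell at the higher doses, and at 3.5 g/L its mean was the lowest relative to control among the 6 tested genes. Control libraries ran from 0.886 to 1.30 RPKM with a median of 1.11 RPKM, and 1 g/L libraries from 1.04 to 1.41 RPKM with a median of 1.22 RPKM. At 2 g/L, 5 libraries lay between 0.753 and 0.835 RPKM, below every control library, and library 78 alone stood at 1.16 RPKM, inside the control range. The 3.5 g/L values were 0.473 at the lowest, 0.572 at the median and 0.756 RPKM at the highest, so that no library reached the lowest control. The difference from control was 0.10 at 1 g/L (adjusted p = 0.301). It was -0.17 at 2 g/L (SE 0.062, adjusted p = 0.0213), with a mean of 0.781 times control. The largest difference was at 3.5 g/L, -0.41 (SE 0.062, adjusted p = 8.64e-06), with a mean of 0.531 times control. Each step above 1 g/L passed its own test, at -0.27 from 1 to 2 g/L (adjusted p = 0.00204) and -0.23 from 2 to 3.5 g/L (adjusted p = 0.0198).

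The call at 2 g/L rested on single control libraries: it was -0.16 without library 6 (adjusted p = 0.05, no longer under the threshold) and -0.15 without library 8 (adjusted p = 0.0572). It was also lost with the tag as a term, at -0.23 (SE 0.11, adjusted p = 0.165). The fall at 3.5 g/L was called under every scaling, filter, pseudocount and left-out library that was run, and with a pseudocount of 0.1 in place of 1 it was -0.81. Between L2 libraries alone the fall from 1 to 2 g/L was -0.30 (adjusted p = 0.0356), while no fit with the tag could be had at 3.5 g/L. An antisense gene, Dnmt3bos, overlaps Dnmt3b. The library kit marks strand, but no source used here says that counting did, so reads of the pair may not have been told apart. The counts behind the values are small, and counting alone would give a coefficient of variation of 8.64% in control and 11.5% at 3.5 g/L, against 15.3% and 19.5% observed.

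Dnmt3a, the de novo enzyme that predominates in adult tissues, did not pass the test in any comparison. It lies on chromosome 12 from 3806007 to 3914443 on the plus strand, overlaps the antisense gene Dnmt3aos, and had 492 to 723 reads per library. Mean levels were 2.04 ± 0.18 RPKM in control, 2.06 ± 0.30 RPKM at 1 g/L, 2.00 ± 0.28 RPKM at 2 g/L and 1.99 ± 0.16 RPKM at 3.5 g/L (SD, n = 6). The difference from control at 3.5 g/L was -0.02, with a 95% interval of -0.16 to 0.11, and for Dnmt3b the interval was -0.53 to -0.28. Whether the 2 genes differ in their response was not tested. Within the 1 g/L group Dnmt3a split by title tag, with 1.76 to 1.88 RPKM in the L1 libraries and 2.16 to 2.54 RPKM in the L2 libraries. With the tag as a term its difference from control at 2 g/L went from -0.02 to -0.25 (SE 0.096, adjusted p = 0.085). The RefSeq table holds 3 windows for Dnmt3a with 18, 46 and 47 CpG and no E2F match.

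Among the readers, Mbd3 rose. Mbd3 differs from its relatives in that its mammalian form does not bind methylated CpG well, and it serves as a core subunit of the NuRD complex, which joins nucleosome remodelling to histone deacetylation. It lies on chromosome 10 from 80392539 to 80399550 on the minus strand, with 260 to 453 reads per library. Its RefSeq start window is chr10:80399482-80399781, shown because it belongs to the one member that rose at both higher doses. It is printed 5′ to 3′ along the minus strand with CCAAT boxes, searched as CCAAT on both strands, in capitals:
Mbd3: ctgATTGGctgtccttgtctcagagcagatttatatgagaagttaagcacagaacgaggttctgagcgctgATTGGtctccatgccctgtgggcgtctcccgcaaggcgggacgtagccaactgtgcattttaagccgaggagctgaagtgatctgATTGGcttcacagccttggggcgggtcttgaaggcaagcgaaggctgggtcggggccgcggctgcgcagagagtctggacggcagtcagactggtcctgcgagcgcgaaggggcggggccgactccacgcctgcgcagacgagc
It holds 3 CCAAT boxes, all read on the opposite strand, 22 CpG and no E2F match, at 60.7% GC, and 37.4% of all windows hold at least 1 CCAAT box. A different motif is marked in each printed window, and the motifs are not particular to them. The printed Dnmt1 window also holds 3 CCAAT boxes and 2 GC boxes, and the Mbd3 window holds 2 GC boxes. The 3 Dnmt3a windows hold 6, 7 and 2 GC boxes, and the Mbd4 window holds 2 CCAAT boxes and 1 GC box.

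Mbd3 was at 5.77 to 8.42 RPKM in control with a median of 6.26 RPKM, and at 6.15 to 7.52 RPKM at 1 g/L with a median of 6.91 RPKM. The 2 g/L libraries ran from 7.67 to 9.21 RPKM with a median of 8.17 RPKM, and the 3.5 g/L libraries from 7.49 to 9.38 RPKM with a median of 8.84 RPKM. Control library 3, at 8.42 RPKM, was the one control that reached into the range of the higher doses, and the other 5 controls were at 6.71 RPKM or below. The difference from control was 0.06 at 1 g/L (adjusted p = 0.599), 0.31 at 2 g/L (SE 0.070, adjusted p = 0.000852) and 0.34 at 3.5 g/L (SE 0.070, adjusted p = 0.000258). Means were 1.26 and 1.30 times control at the higher doses. From 1 to 2 g/L, where the groups did not overlap, Mbd3 rose by 0.24 (adjusted p = 0.0106). It was the 1 gene of 6 that rose in that comparison, and Dnmt3b was the 1 that fell, against 22.7% and 5.63% of all genes.

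Without control library 3 the Mbd3 differences at 2 and 3.5 g/L were larger, 0.37 and 0.41. With median-ratio factors they were 0.15 at 2 g/L (adjusted p = 0.0965) and 0.21 at 3.5 g/L (adjusted p = 0.0214), and with quantile normalization 0.11 (adjusted p = 0.229) and 0.15 (adjusted p = 0.0962). With the tag as a term the 2 g/L difference was 0.32 (adjusted p = 0.0825). The rise from 1 to 2 g/L also lost its call, at 0.16 with median-ratio factors (adjusted p = 0.132), 0.11 with quantile normalization (adjusted p = 0.312), 0.25 with the tag as a term (adjusted p = 0.0539) and 0.25 between L2 libraries alone (adjusted p = 0.0508).

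The other NuRD genes were higher at the same doses. Of 10 tested, 7 rose at 2 g/L and 8 rose at 3.5 g/L, against 41.9% and 38.6% of all genes, and none fell. Their medians were 0.27 and 0.23, where the median of all genes was 0.12 and 0.10. The largest at 2 g/L were Gatad2a (0.40), a subunit that bridges the remodelling and deacetylase modules, Cdk2ap1 (0.37), a small subunit, and the scaffold subunits Mta3 (0.31) and Mta2 (0.29). Mta2 rose already at 1 g/L (0.23, adjusted p = 0.00485), from 7.47 to 8.92 RPKM. The deacetylase Hdac1, at 0.03 at 2 g/L and 0.06 at 3.5 g/L, and Gatad2b, at 0.01 and 0.05, did not pass the test at either dose; they are named after their values were seen. With median-ratio factors 4 and 5 of 10 rose at 2 and 3.5 g/L, with quantile normalization 4 and 3, and with the tag as a term 2 at 2 g/L. Without control library 3, 5 of 10 rose at 3.5 g/L. No gene of this list changed between 2 and 3.5 g/L.

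**Figure D3:**
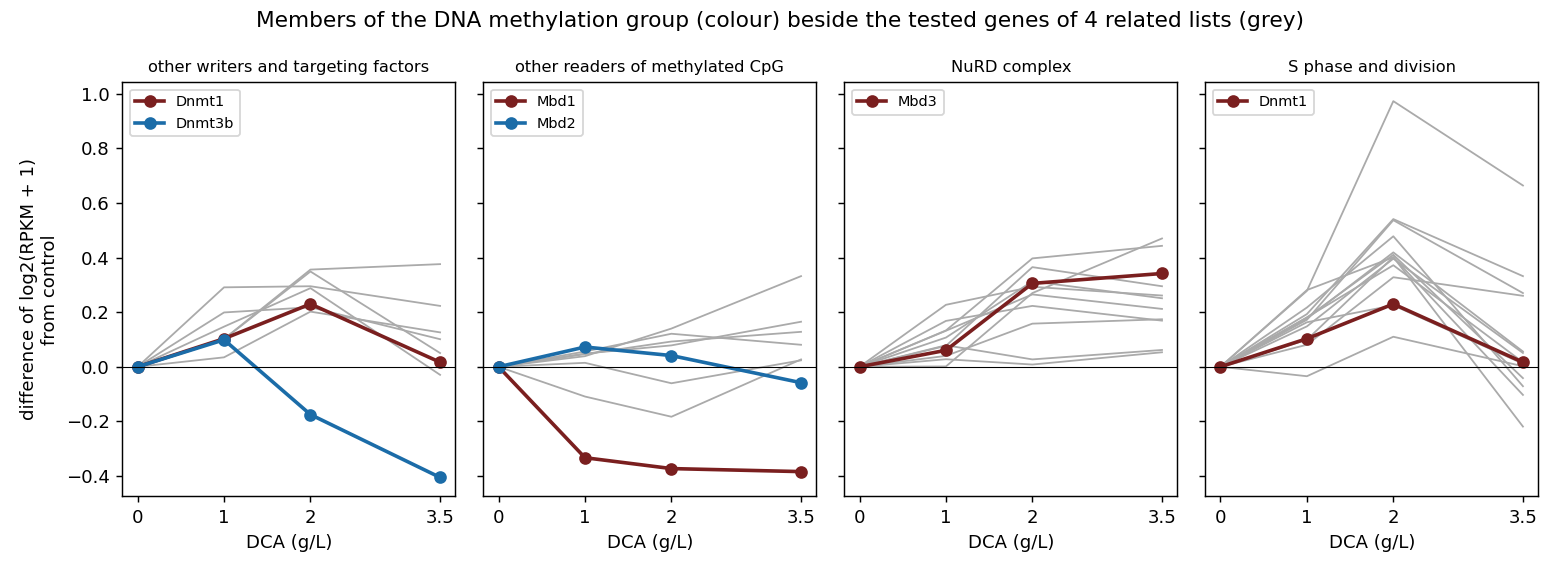
Difference from control in log2(RPKM + 1) (vertical axis, control set to 0) against the DCA dose (g/L, horizontal axis) for the tested genes of 4 lists in grey, with Dnmt1, Dnmt3b, Mbd1, Mbd2 and Mbd3 in colour. Dnmt1 rises to 0.23 at 2 g/L and returns to 0.02 with most replication genes, Mbd3 stays up at 0.31 and 0.34 with most NuRD genes, and Dnmt3b and Mbd1 lie below 0 at 2 and 3.5 g/L.

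Mbd1, which binds methylated CpG and, through zinc-coordinating CXXC domains, can also bind unmethylated CpG, was lower in treated liver. It lies on chromosome 18 from 74267605 to 74282732 on the plus strand, with 391 to 886 reads per library. Control libraries ran from 7.58 to 11.6 RPKM with a median of 9.31 RPKM. The lowest, median and highest were 5.01, 7.59 and 8.85 RPKM at 1 g/L, 5.92, 7.13 and 8.84 RPKM at 2 g/L, and 5.22, 7.00 and 9.22 RPKM at 3.5 g/L. The treated groups overlapped the control range and lay almost on top of each other. The difference from control was -0.33 at 1 g/L (SE 0.12, adjusted p = 0.0694), -0.37 at 2 g/L (SE 0.12, adjusted p = 0.0115) and -0.38 at 3.5 g/L (SE 0.12, adjusted p = 0.00935). Means were 0.775, 0.747 and 0.745 times control. Between 2 and 3.5 g/L the difference was -0.01, with a 95% interval of -0.26 to 0.24.

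At 1 g/L the call on Mbd1 turned with small changes of the fit: it was -0.40 with median-ratio factors (adjusted p = 0.0325), -0.39 with quantile normalization (adjusted p = 0.0368) and -0.39 without control library 6 (adjusted p = 0.0459). With the tag as a term the 2 g/L difference was -0.57 (SE 0.21, adjusted p = 0.0642). Mbd1 varied far more between libraries than counting allows, with a coefficient of variation of 15.6% in control against 3.74% from counting.

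Mbd2, which binds methylated CpG and forms a NuRD complex of its own in place of Mbd3, did not pass the test in any comparison. It lies on chromosome 18 from 70568189 to 70626131 on the plus strand. Mean levels were 7.44 ± 0.76 RPKM in control, 7.87 ± 0.77 RPKM at 1 g/L, 7.68 ± 0.63 RPKM at 2 g/L and 7.11 ± 0.73 RPKM at 3.5 g/L (SD, n = 6). The 95% interval of the difference at 3.5 g/L was -0.21 to 0.09. With the scaling changed this gene moved to the other side of the threshold: at 3.5 g/L it fell by 0.19 with median-ratio factors (adjusted p = 0.0176) and fell by 0.25 with quantile normalization (adjusted p = 0.00155).

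Mbd4, a glycosylase that removes thymine or uracil mispaired with guanine at CpG sites, was too low for the test, with 12 to 49 reads per library. It lies on chromosome 6 from 115840697 to 115853371 on the minus strand and overlaps an antisense gene, Gm44206. Control libraries ran from 0.166 to 0.482 RPKM, 1 g/L libraries from 0.144 to 0.333 RPKM, 2 g/L libraries from 0.168 to 0.296 RPKM and 3.5 g/L libraries from 0.109 to 0.250 RPKM. All ranges overlapped. In a fit with no filter on low values the difference at 3.5 g/L was -0.10 (SE 0.048, adjusted p = 0.15).

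A straight line through the 4 doses summarised these courses per g/L of DCA. Dnmt3b fell by 0.13 per g/L (adjusted p = 1.08e-05), Mbd1 fell by 0.10 per g/L (adjusted p = 0.0215) and Mbd3 rose by 0.11 per g/L (adjusted p = 0.000101). That is 1 of 6 up and 2 of 6 down, against 38.0% and 12.6% of all genes. A line does not describe Dnmt1, which turned between 2 and 3.5 g/L, and its slope was 0.01 (adjusted p = 0.766).

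Other readers of methylated CpG rose in part in the deposited scaling. Of 6 tested, 1 rose at 2 g/L (Baz2a, 0.14, a remodeller subunit that silences ribosomal genes), 3 rose at 3.5 g/L (Baz2a, 0.33, with Mbd5, 0.17, and Baz2b, 0.13, named after their values were seen) and none fell. Of all genes 41.9% rose at 2 g/L and 38.6% rose at 3.5 g/L. At 3.5 g/L the median of the 6 was 0.10, the same as over all genes, and with median-ratio factors 1 of 6 rose there. At 2 g/L none rose and 2 fell with median-ratio factors, and none rose and 1 fell with quantile normalization.

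Of 7 tested CXXC genes, whose products bind unmethylated CpG, the histone H3 lysine 4 methyltransferases Kmt2a (-0.19) and Kmt2b (-0.19) fell at 2 g/L and Kdm2b (0.15), a histone demethylase, rose. Kmt2a (-0.13) and Kmt2b (-0.16) fell at 3.5 g/L as well, with Cxxc5 (-0.29), which was named after its value was seen. Of all genes 10.0% fell and 41.9% rose at 2 g/L, and 12.9% fell and 38.6% rose at 3.5 g/L. With median-ratio factors 4 of the 7 CXXC genes fell and none rose at either dose. With quantile normalization 5 fell at 2 g/L and 4 at 3.5 g/L.

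Some genes of demethylation and base excision repair rose, at 2 and 3.5 g/L in shares near those of all genes. Of 6 tested, 3 rose at 2 g/L, namely Apex1 (0.62), the endonuclease that cuts at sites where a base was removed, Gadd45a (0.30), a stress gene linked to demethylation, and the ligase Lig3 (0.19). At 3.5 g/L 2 of 6 rose, Apex1 (0.39) and Gadd45a (0.53). Gadd45a was at 0.497 RPKM or below in control, so it passed the filter only through treated libraries. Of all genes 41.9% rose at 2 g/L and 38.6% rose at 3.5 g/L. Apex1 rose at 1 g/L too (0.46), from 6.02 to 8.62 RPKM. The median of the 6 was 0.18 at 2 g/L, and with median-ratio factors 2 of 6 rose and the median was 0.04. At 3.5 g/L 2 rose and 1 fell with median-ratio factors (median -0.05), and 1 rose and 2 fell with quantile normalization (median -0.07). The Tet dioxygenases, Tdg and Uhrf1 were not analysed here.

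Enzymes that supply and clear the methyl donor S-adenosylmethionine moved in both directions. Of 16 tested, 5 rose and 3 fell at 2 g/L, against 41.9% and 10.0% of all genes. At 3.5 g/L 3 rose and 3 fell, against 38.6% and 12.9% of all genes. Mat1a, which makes the donor in hepatocytes, was at 343 RPKM in control, 445 RPKM at 2 g/L (0.39) and 682 RPKM at 3.5 g/L, and rose by 0.61 between those doses. Ahcy, which clears S-adenosylhomocysteine, the product that inhibits methyltransferases, was at 308 RPKM in control and fell by 0.52 at 2 g/L and by 0.30 at 3.5 g/L. Gamt, which uses the donor to make creatine, rose by 0.40 and Gnmt, which uses up excess donor, fell by 0.26 at 2 g/L. With median-ratio factors none of the 16 rose and 5 fell at 2 g/L, and 2 rose and 7 fell at 3.5 g/L. With quantile normalization 2 rose and 4 fell at 2 g/L, and 2 rose and 6 fell at 3.5 g/L.

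Among the 6 tested members, levels within a dose ran with each other only weakly. After each dose's mean was taken off, Pearson's r over 24 libraries was highest in size for Dnmt3b and Mbd3 at -0.51, and for Dnmt1 and Mbd1 it was 0.39. These are descriptions over libraries that share depth, tissue makeup and tags. By the same measure, the genes most like Dnmt1 were Nup133 (0.75), Dlg1 (0.75) and Klhl20 (0.74), and those most like Dnmt3a were Mterf4 (0.83), Ep400 (0.77) and Klhdc3 (0.77). For Dnmt3b they were Calu (0.79), Kng1 (0.78) and Cpn2 (0.78). For Mbd1 they were Gm14420 (0.75), Gm14403 (0.75) and Foxj2 (0.73), the first pair from a family of near-identical zinc finger genes whose reads may be shared. For Mbd2 they were Maged1 (0.74), Ncoa3 (0.74) and Nono (0.73), and for Mbd3 Adrm1 (0.73), Heatr6 (0.73) and Foxp4 (0.71).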

How the data were processed

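Per the file headers and values, the authors deposited 1 table of RPKM per gene for all 24 libraries, with zeros standing as 1e-04. CASAVA, STAR 2.4 and Partek, with build mm10, are listed in the submitters' processing notes. The annotation and the use of strand in counting are not given in the sources used here. The table as held stops after Olfr270, so genes later in the alphabet were not analysed here. An incomplete line and 13 symbols turned into dates were dropped.

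Depth was estimated from the steps between low values: 78.6% of 2971 low genes gave whole reads within 0.1 read, for roughly 21600000 to 25700000 reads per library.

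All 24 libraries entered 1 fit with limma 3.58.1 in R 4.3.3, with an intensity trend, 1 mean per dose, log2(RPKM + 1) and a filter of 0.5 RPKM in at least 6 libraries. Two-sided p-values were adjusted by Benjamini-Hochberg over all 6540 tested genes and a threshold of 0.05. The code was tested on simulated data. The members and lists were chosen with earlier results of these data known. Named are all members, from each other list at most 4 called genes with the largest difference at 2 g/L, genes of the first 5 lists called at 1 g/L, and the 3 genes most like each member; others are marked where named. Loci are from GENCODE M21. RefSeq windows were matched by symbol for 5 of 7 members.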

Additional observations from a re-analysis of the deposited data

Results flagged for a closer look

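In 28 groups (7 genes at 4 doses), 3 held a library far from the other 5, by Dixon's ratio of the gap to the range, which chance flags in about 1 of 20 groups. Dnmt3b in 2 g/L library 78 was at 1.158 RPKM, above the next library at 0.8349 RPKM (ratio 0.798). That library also had the lowest Ehhadh at its dose, at 165 RPKM against 673 to 1560 RPKM in the other 5. Ehhadh is a peroxisomal gene named after its values were seen, at 24.2 to 36.4 RPKM in control. In Mbd3 (8.53 RPKM) and the summed S phase level (24.2 RPKM) library 78 lay within the range of the other 2 g/L libraries. What set it apart was not tested. Without library 78 the difference of Dnmt3b from control at 2 g/L was -0.22. Mbd2 in 2 g/L library 73 was at 6.413 RPKM, below the next at 7.727 RPKM (ratio 0.785). Mbd3 in control library 3 was at 8.416 RPKM, above the next at 6.714 RPKM (ratio 0.643), and that library had the lowest relative depth of all 24, 0.939.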

How the results depend on the processing

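Over all results, 725 of 750 alternative values for single members kept their side of the threshold, 18 lost the call and 7 gained one. No value called in either fit changed sign, but 38 that were called in neither did, 21 of them for Dnmt3a, as with Mbd2 at 2 g/L, which went from 0.04 to -0.11 (median-ratio factors) or -0.15 (quantile normalization). Counts of called members moved as follows. At 1 g/L the count was 0 as reported and 1 (Mbd1) with median-ratio factors or quantile normalization, and 0 to 1 with 1 library left out (1 without control library 6). At 2 g/L the count of 4 became 2 with median-ratio factors and 0 with the title tag as a term, whose standard errors were 1.72 times as large at the median. It was 3 with quantile normalization, and Dnmt3b dropped out without control library 6 or 8. At 3.5 g/L the count of 3 (1 up, 2 down) became 4 (1 up, 3 down) with median-ratio factors, and stayed at 3 (0 up, 3 down) with quantile normalization, where Mbd3 was lost and Mbd2 gained. From 1 to 2 g/L the count of 2 became 1 with median-ratio factors, quantile normalization, the tag as a term and L2 libraries alone, in each case by the loss of Mbd3. From 2 to 3.5 g/L the count was 1 to 2 with 1 library left out. The slope of Mbd1 lost its call without control library 4, control library 5 or 3.5 g/L library 99, and that of Mbd2 gained one with median-ratio factors (-0.06) and quantile normalization (-0.08). The cause of these shifts was not tested. No fit with the tag could be had at 3.5 g/L. No paired analysis was possible because the doses share no replicate numbers. Depth limits Mbd4 most, where counting alone gives a coefficient of variation of 18.9% in control.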
